A study of Mus musculus with 12 samples.

Results

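Respiratory chain genes of both genomes were read from tag-count tables of mouse tumours. They were taken as the symbols that begin with MT-, Nduf, Uqcr, Atp5 or Cox4 to Cox8, together with the succinate dehydrogenase subunits Sdha to Sdhd, Cyc1 and Cycs. A member also needed at least 50 counts summed over the 12 tables. Each table lists 19921 symbols. The names matched 127 of them, and 96 were members, 14 encoded by the mitochondrial genome and 82 by nuclear chromosomes. The rule used names and total counts, and no difference between groups, though it was set with earlier results of these data known. Some members reached the minimum largely through control: Atp5g1 had 29 of its 58 counts there, Sdhb 36 of 72 and Sdhc 40 of 83. Lower levels given below for such members are not independent of that minimum. Ndufb2 with 55 counts and Ndufaf6 with 57 stood just inside the minimum, and Ndufaf1 with 37 and Uqcrh-ps1 with 34 just outside it. The 31 matching symbols under the minimum included 18 mitochondrial tRNAs, MT-Nd4l with 29 counts and 12 nuclear symbols.

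Each tumour grew from 200000 cells of Colon26, a mouse colon carcinoma line, placed under the skin of the right flank of a BALB/c wild-type mouse, and was taken on day 10. The 4 groups of 3 mice were control, minP1 (a peptide of HMGN1, a chromatin protein, that stimulates immune cells, given at 0.08 µg into the peritoneum on day 9), anti-PD-L1 (the antibody clone 10F.9G2 against the checkpoint ligand PD-L1, 200 µg into the peritoneum on days 4 and 8), and a combination of both agents. For the combination only the sample titles name the peptide, and the treatment field names the antibody alone after a plus sign. Every result of that group therefore rests on the titles. Collagenase and DNase I broke up each tumour, a Percoll step depleted them of tumour cells and of dead cells, and poly(A) RNA from what remained was amplified and read from its 5′ ends. Levels are given below as CPM, counts per 1000000 of scaled library size. Reads were counted as 5′ tags, and levels were not adjusted for gene length. Amplified copies of 1 captured end cannot be told apart, as reads carry no molecular identifiers. Where in a gene its tags lie was not tested, so a count need not stand for the 5′ ends of that gene's message. These are bulk samples of mixed cells, in which fewer cells of a type and less RNA per cell cannot be told apart.

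The respiratory chain passes electrons from NADH and succinate through complexes I to IV of the inner mitochondrial membrane to oxygen, and ATP synthase, complex V, uses the proton gradient they build. Complexes I, III, IV and V mix subunits from both genomes, while complex II is nuclear only. Mitochondrial genes of a strand are copied together into long transcripts that are then cut apart, mostly at the tRNAs between the genes, and most of the messages receive short poly(A) tails. Nuclear subunits are transcribed gene by gene and imported. In tumours and immune cells, the balance between respiration and glycolysis is known to differ between cell types and activation states.

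The junction of MT-Atp6 and MT-Co3 is shown first because this pair of neighbours, cut from the same transcript, went opposite ways in the combination. The sequences are from GRCm38, plus strand of the mitochondrial chromosome, which the annotation used here (GENCODE) calls chrM. Capitals mark the stop codon of MT-Atp6 and the start codon of MT-Co3, and the genes share 1 base, position 8607. No tRNA lies between them.
MT-Atp6 end, chrM:8578-8607: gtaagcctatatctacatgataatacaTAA
MT-Co3 start, chrM:8607-8636: ATGacccaccaaactcatgcatatcacata
The 5′ ends of 2 further messages are shown for comparison, with the annotated start codon in capitals. MT-Nd1, which fell most among the mitochondrial genes, starts with GTG, and MT-Co2 belongs to the same complex as MT-Co3.
MT-Nd1 start, chrM:2751-2780: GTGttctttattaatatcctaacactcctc
MT-Co2 start, chrM:7013-7042: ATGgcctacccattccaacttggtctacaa

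Total counts ran from 133917 to 473273 per library, a 3.53-fold range, with 285753 to 473273 in control and 133917 to 196109 in the combination. With all libraries thinned to the same depth, the genes detected numbered 10632 to 11608 for control, 10484 to 11045 for minP1, 9970 to 10655 for anti-PD-L1 and 9799 to 10439 for the combination. In minP1 replicate 2 and anti-PD-L1 replicate 1 the transcripts Bc1 and Lrrc17 together took 4.17% and 4.43% of the counts, the highest share of each group. Below, these are called the 2 libraries that stand apart. In the other libraries these transcripts took 1.36% to 2.34% in control, 1.497% and 1.94% in minP1, 2.35% and 3.56% in anti-PD-L1, and 2.49% to 6.32% in the combination. The share does not single out anti-PD-L1 replicate 1, as replicate 3 of that group had 3.56%. Combination replicate 3 had 2.49%, against 5.04% and 6.32% in its group, and was not set aside with them. Counts of called members are given below also with both libraries that stand apart left out. Of the 96 members 85 passed the filter on low counts, 13 mitochondrial and 72 nuclear. Adjusted p-values are from edgeR's quasi-likelihood test over 5443 genes with Benjamini-Hochberg adjustment and a threshold of 0.05, the sign ± precedes the SE for log2 fold changes and the SD over 3 libraries where so marked, and CPM values are listed in the order of the replicates.

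With the ribosomal RNAs included, the balance of the 2 genomes overlapped between all 4 groups, while the make-up of the mitochondrial share differed between control and combination. All 14 mitochondrial members held 1.14%, 1.43% and 1.57% of the counts in control and 1.35%, 1.42% and 0.897% in the combination. The log2 ratio of mitochondrial to nuclear member counts was -0.17 ± 0.44 for control, -0.26 ± 0.25 for minP1, -0.05 ± 0.28 for anti-PD-L1 and -0.11 ± 0.35 for the combination (SD, n = 3). The groups overlap in both measures. The 2 ribosomal RNAs made up 24903 of the 43806 mitochondrial counts and so weigh most in them. The libraries are of poly(A) RNA, and how fully the ribosomal RNAs were captured was not tested. Without the ribosomal RNAs, control and combination did not overlap. The ratio of mitochondrial protein-coding to nuclear counts was 0.255 to 0.341 in control and 0.398 to 0.69 in the combination. In minP1 it was 0.251 to 0.471 and in anti-PD-L1 0.388 to 0.603, and both of these overlap the combination. With MT-Co3 left out as well, the order of control and combination turned. That ratio was 0.139 to 0.233 in control and 0.0734 to 0.0835 in the combination.

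Within the mitochondrial share, MT-Co3 and the other messages were apart in the combination. The 11 other protein-coding members took 0.251%, 0.332% and 0.324% of the counts in control and 0.0941%, 0.110% and 0.104% in the combination. MT-Co3 alone took 0.209%, 0.154% and 0.146% in control and 0.780%, 0.797% and 0.408% in the combination. The 2 ribosomal RNAs took 0.678%, 0.942% and 1.10% in control and 0.476%, 0.512% and 0.385% in the combination. Every combination library lay below every control library for the first and the third of these sums, and above them for MT-Co3. In minP1 replicate 2 and anti-PD-L1 replicate 1, the libraries high in Bc1 and Lrrc17, MT-Co3 took 0.421% and 0.584%, against 0.144% and 0.156% in the other minP1 libraries and 0.317% and 0.410% in the other anti-PD-L1 libraries. The part of those transcripts in the level of MT-Co3 was not tested beyond a fit that holds the Bc1 level constant, given below.

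**Figure D1:**
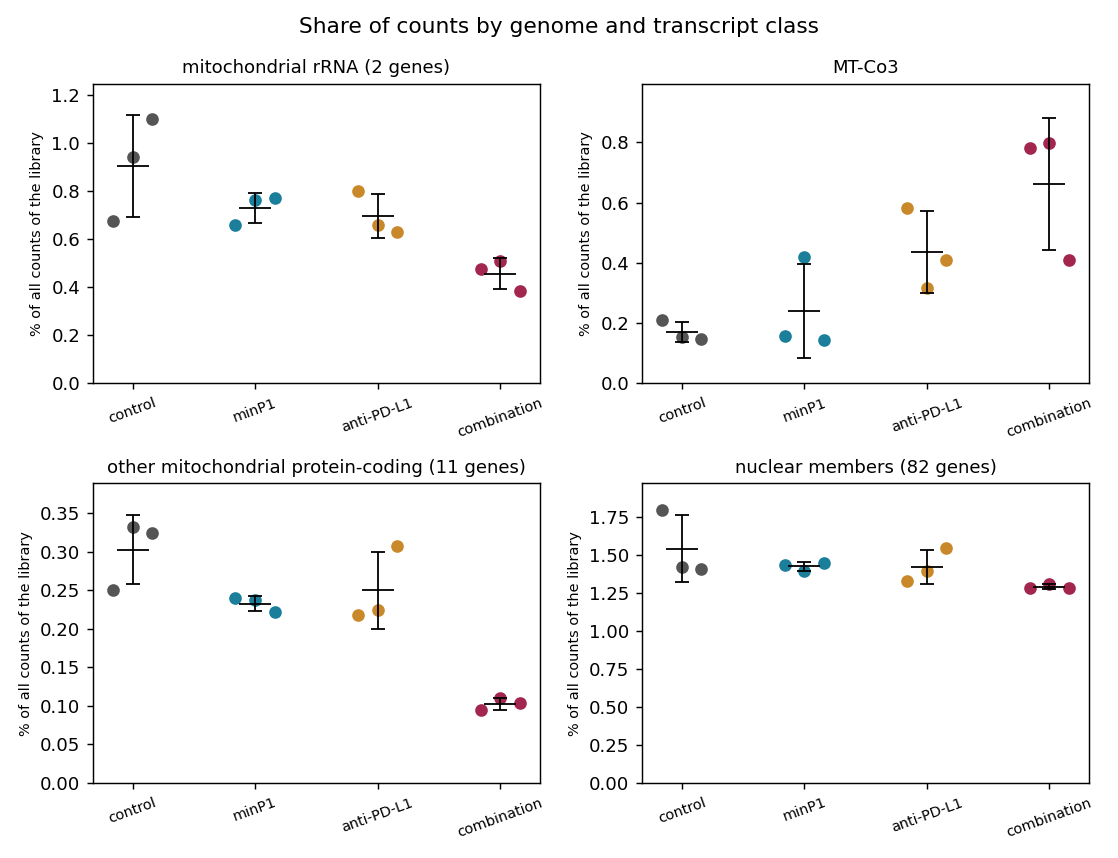
Share of each library's counts (percent, linear axes from 0) taken by mitochondrial ribosomal RNA, MT-Co3, the other 11 mitochondrial protein-coding members and the 82 nuclear members. Points are single libraries, bars the mean and SD of 3. The combination lies below control for the ribosomal RNAs and the 11 messages and above it for MT-Co3, at 0.408% to 0.797% against 0.146% to 0.209%.

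The nuclear members together took 1.80%, 1.42% and 1.41% of the counts in control and 1.28%, 1.31% and 1.29% in the combination. By complex, nuclear complex IV subunits took 0.428%, 0.313% and 0.332% in control and 0.171%, 0.170% and 0.226% in the combination. For nuclear complex V subunits the sums were 0.556%, 0.442% and 0.433% in control and 0.607%, 0.633% and 0.548% in the combination, and these groups overlap. Complex III subunits took 0.117% to 0.167% in control and 0.0650% to 0.0770% in the combination, complex II subunits 0.0304% to 0.0349% and 0.00597% to 0.0136%, and complex I subunits 0.414% to 0.521% and 0.334% to 0.338%. For complexes I to IV, every combination library lay below every control library. Without Atp5a1, a subunit of complex V, the nuclear sum was 1.36% to 1.73% in control and 1.078% to 1.10% in the combination.

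The combination against control is the comparison in which the most members were called. Of the 13 mitochondrial members tested 1 was higher and 10 were lower, and of the 72 nuclear members 6 were higher and 29 lower. Among all genes tested 16.5% were higher and 18.3% lower in this comparison, and 34.8% were called in either direction, so the count of higher members, 7 of 85, was below the share of all genes and the count of lower members, 39 of 85, above it. The median log2 fold change was -1.35 over the mitochondrial members, -0.70 over the nuclear members and -0.06 over all genes tested. Nuclear members were negative in 57 of 72 cases, against 52.3% of all genes. When the Bc1 level was added to the fit, 1 mitochondrial member was higher and 9 lower, and 1 nuclear member was higher and 20 lower. With both libraries that stand apart left out, 1 mitochondrial member was higher and 10 lower, and 6 nuclear members were higher and 32 lower.

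**Figure D2:**
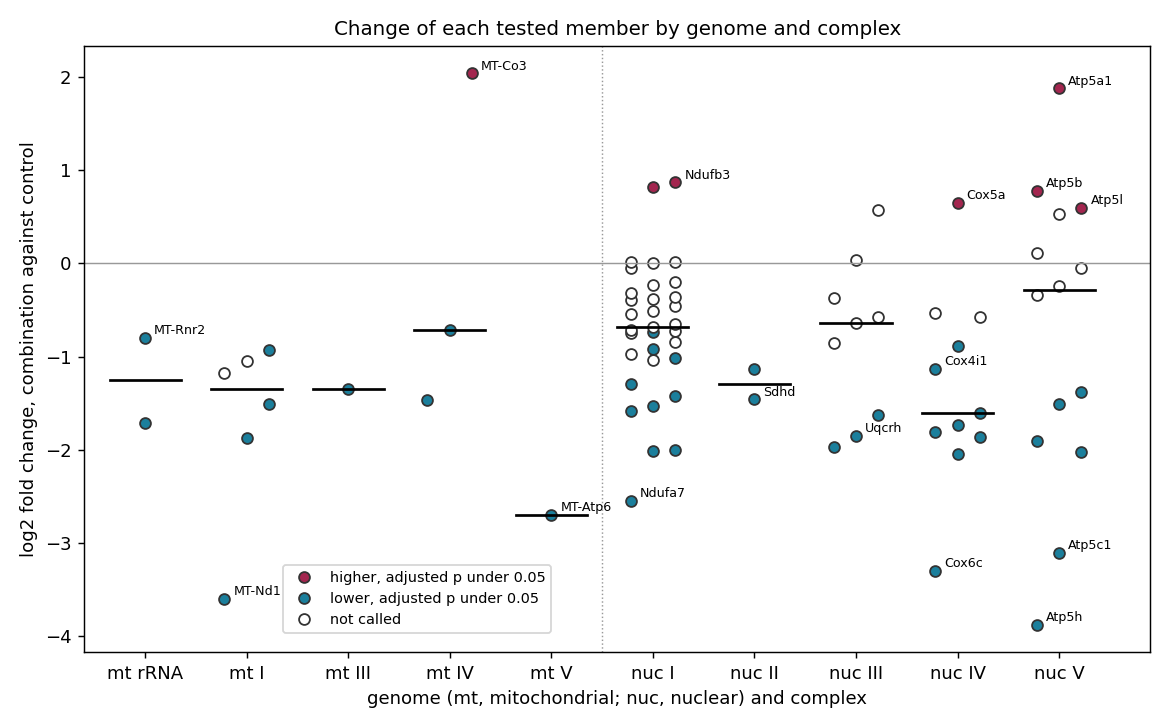
Log2 fold change (linear axis of log2 values) of 82 of the 85 tested members in the combination against control, by genome and complex, each point 1 gene and each bar the median of its class. Filled points passed an adjusted p of 0.05. MT-Co3 at 2.04 and Atp5a1 at 1.88 stand above, and Atp5h at -3.88 and MT-Nd1 at -3.60 below.

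MT-Co3 encodes the third core subunit of cytochrome c oxidase, complex IV. Its level was 2247, 1605 and 1552 CPM in control, 1626, 4804 and 1528 in minP1, 6630, 3396 and 4549 in anti-PD-L1, and 8921, 9322 and 4068 in the combination. All 3 combination and all 3 anti-PD-L1 libraries were above all controls, while minP1 was above control through replicate 2 alone. In the combination MT-Co3 rose by a log2 fold change of 2.04 ± 0.37 (adjusted p = 0.000251), a 4.13-fold higher level. It kept the call in all 22 alternatives, with log2 fold changes from 0.71 to 2.35, the lowest with the Bc1 level held constant (adjusted p from 3.7e-12 to 0.0251).

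MT-Atp6, which ends on the base where MT-Co3 begins and encodes the membrane subunit a of ATP synthase, fell. Its level was 315, 369 and 376 CPM in control, 324, 183 and 310 in minP1, 145, 208 and 286 in anti-PD-L1, and 51.2, 53.7 and 56.4 in the combination. The combination libraries lie close together and far below all others, and minP1 replicate 2 and anti-PD-L1 replicate 1 are the lowest of their groups. The log2 fold change in the combination was -2.70 ± 0.34 (adjusted p = 4.34e-06), a 6.49-fold lower level. Within a library, the log2 ratio of MT-Co3 to MT-Atp6 was 2.84, 2.12 and 2.04 in control, 2.33, 4.71 and 2.30 in minP1, 5.51, 4.03 and 3.99 in anti-PD-L1, and 7.44, 7.44 and 6.17 in the combination. This ratio does not depend on scaling, and it separates the combination from every other library. MT-Atp8, the small ATP synthase subunit that shares 43 bases with the start of MT-Atp6, had 30 counts over the 3 controls and 8 over the combination and was not tested. Its ratio of scaled levels was 0.617 with a 95% counting interval of 0.245 to 1.38, so a difference was not detectable at this depth.

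**Figure D3:**
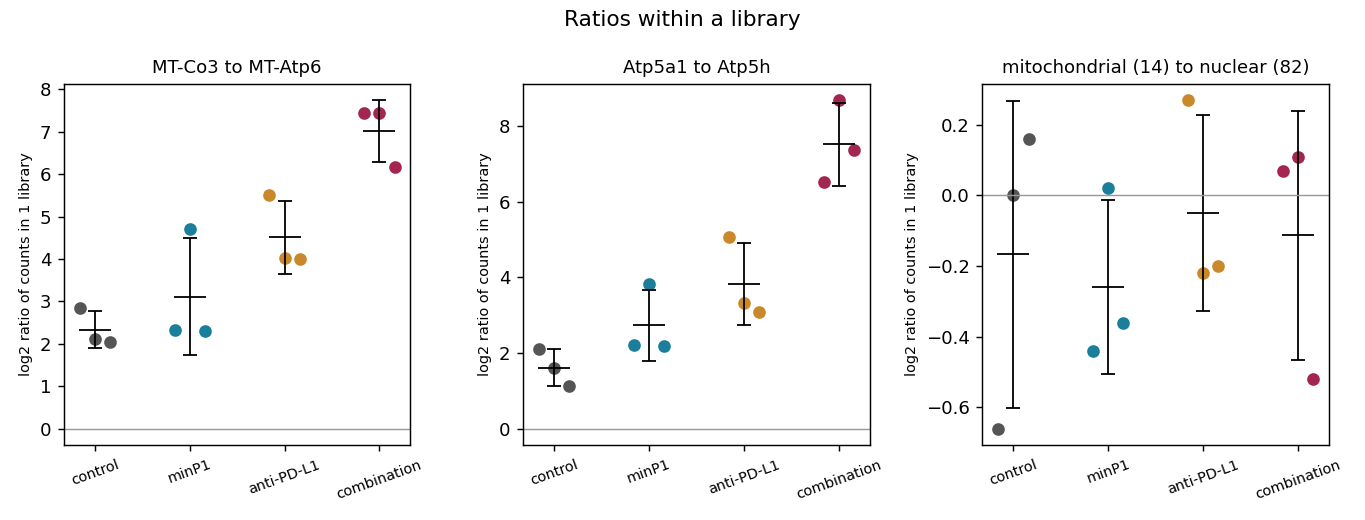
Log2 ratios of counts within each library for MT-Co3 to MT-Atp6, Atp5a1 to Atp5h, and all 14 mitochondrial to all 82 nuclear members, on linear axes of log2 values. Points are libraries, bars the mean and SD of 3. The first ratio reaches 6.17 to 7.44 in the combination against 2.04 to 2.84 in control, while the genome ratio overlaps between all groups.

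The other core subunits of complex IV did not follow MT-Co3. MT-Co2, the copper subunit that takes electrons from cytochrome c, had 936, 1134 and 1147 CPM in control and 333, 442 and 384 in the combination, with no overlap. Its log2 fold change was -1.47 ± 0.25 (adjusted p = 0.000145). MT-Co1, which holds the haem and copper centre where oxygen is reduced, had 298, 395 and 537 CPM in control and 316, 286.5 and 158 in the combination, and these groups overlap. MT-Co1 fell by 0.72 on the log2 scale (adjusted p = 0.0464), a call lost in 16 of 22 alternatives, with adjusted p from 0.0189 to 0.252. The log2 ratio of MT-Co3 to MT-Co2 was 0.73 ± 0.46 in control and 4.18 ± 0.69 in the combination, and that of MT-Co3 to MT-Co1 was 2.16 ± 0.70 and 4.84 ± 0.17 (SD, n = 3).

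Complex I subunits of the mitochondrial genome sit in the proton-pumping membrane arm. Of 6 tested 4 fell, where 18.3% of all genes tested were lower, and the median log2 fold change was -1.34. MT-Nd1 had 269, 373 and 314 CPM in control, 241, 158 and 208 in minP1, 48.4, 96.4 and 196 in anti-PD-L1, and 8.54, 35.8 and 28.2 in the combination. Levels in the combination lay below all other libraries, and the 3 treated groups lay below control without overlap. Its log2 fold change was -3.60 ± 0.45 in the combination (adjusted p = 4.98e-06), a 12.1-fold lower level. MT-Nd4 fell by 1.51 (200, 234 and 278 CPM in control, 59.8, 95.5 and 90.3 in the combination, adjusted p = 0.000386).

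MT-Nd3 fell by 1.88 with a wide spread, at 97.3, 157 and 110 CPM in control and 17.1, 71.6 and 5.64 in the combination (adjusted p = 0.00753). That call ends without combination replicate 3, where the adjusted p is 0.0556. MT-Nd2 fell by 0.93 (adjusted p = 0.035), with groups that overlap. It lost the call without control replicate 1 or 3, anti-PD-L1 replicate 3, or combination replicate 1 or 3, with adjusted p from 0.0504 to 0.169. The call also ended with DESeq2 (adjusted p = 0.0997) and with thinning to equal depth (adjusted p = 0.217). MT-Nd5 and MT-Nd6, which are read from opposite strands and share 14 bases at their ends, had log2 fold changes of -1.05 ± 0.52 and -1.18 ± 0.50 that did not pass (adjusted p = 0.118 and 0.0676). The counting's use of strand is not given in the sources used here, so reads from the shared bases cannot be told apart. Without control replicate 1, at 28.6 CPM against 132 and 119 in the other controls, MT-Nd6 passed with a log2 fold change of -1.57 (adjusted p = 0.00571), and without combination replicate 3 with -1.89 (adjusted p = 0.0252).

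MT-Cytb, the only complex III subunit of the mitochondrial genome, had 315, 479 and 305 CPM in control and 171, 119 and 141 in the combination. The groups do not overlap, and it fell by 1.35 ± 0.29 (adjusted p = 0.000981). The ribosomal RNAs build the mitochondrial ribosome and precede the messages on the genome. MT-Rnr1, the RNA of the small subunit, had 1334, 1459 and 2038 CPM in control and 504, 621 and 356 in the combination (log2 fold change -1.71 ± 0.25, adjusted p = 1.99e-05). MT-Rnr2, the RNA of the large subunit and the most counted member, had 5944, 8384 and 9623 CPM in control and 4934, 5365 and 3481 in the combination. It fell by 0.80 ± 0.24 (adjusted p = 0.0142), a call that ends without control replicate 3 or combination replicate 3, with adjusted p of 0.0686 and 0.0766. Thus all 12 mitochondrial members other than MT-Co3 that were tested had negative log2 fold changes, from -3.60 to -0.72, and 10 of them passed.

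**Figure D4:**
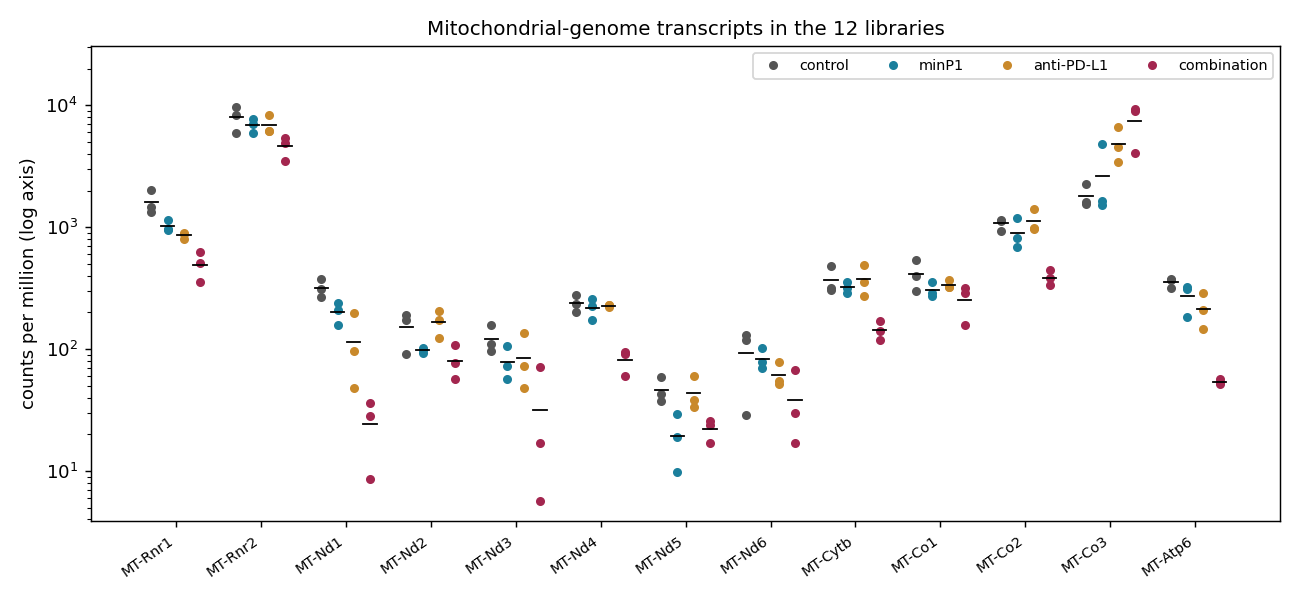
CPM (log axis) of the 13 tested mitochondrial members in the 12 libraries, coloured by group, with a bar at each group's mean. The combination is the lowest group on average for all of them but MT-Co3, for which control is lowest, and MT-Nd5, for which minP1 is.

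ATP synthase showed opposite movements among the parts of 1 enzyme. Of 14 nuclear subunits tested 3 rose and 6 fell in the combination, or 21.4% and 42.9%. Of all genes tested 16.5% were higher and 18.3% lower, so the count that rose is near that share and is not read as a result. The F1 head, where ATP is made, is a ring of alternating alpha and beta subunits around the rotating gamma shaft. Atp5a1, the alpha subunit, had 736, 574 and 506 CPM in control, 899, 1186 and 751 in minP1, 1843, 819 and 1071 in anti-PD-L1, and 2339, 2471 and 1856 in the combination. Every treated library exceeded every control, and the combination exceeded all others. Atp5a1 rose by a log2 fold change of 1.88 ± 0.28 (adjusted p = 2.46e-05), a 3.67-fold higher level, and passed in all 22 alternatives. Atp5b, the catalytic beta subunit, had 644, 512 and 535 CPM in control and 905, 1098 and 891.5 in the combination, and rose by 0.78 ± 0.23 (adjusted p = 0.0103). When the Bc1 level was added to the fit, its log2 fold change was 0.51 (adjusted p = 0.181), and with no filter on low counts it was 0.72 (adjusted p = 0.0556).

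Atp5c1, the gamma shaft, went the opposite way. Its level was 94.5, 95.1 and 101 CPM in control, 82.8, 43.9 and 72.5 in minP1, 42.3, 40.8 and 96.4 in anti-PD-L1, and 8.54, 17.9 and 5.64 in the combination. The combination lay below all other libraries, with a log2 fold change of -3.11 ± 0.54 (adjusted p = 0.000141), an 8.62-fold lower level. Atp5d, the delta subunit at the foot of the shaft, fell by 1.38 ± 0.39 (adjusted p = 0.00801). Atp5e, the epsilon subunit beside it, had 984.5, 695 and 609 CPM in control and 1528, 1217 and 570 in the combination, which overlap, and did not pass (log2 fold change 0.53 ± 0.30, adjusted p = 0.18).

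The peripheral stalk holds the head still against the rotor, and its 3 tested subunits all fell. Atp5h, subunit d, had 172, 190 and 233 CPM in control, 196, 84.2 and 165 in minP1, 54.4, 81.6 and 127 in anti-PD-L1, and 25.6, 5.97 and 11.3 in the combination. Its log2 fold change of -3.88 ± 0.50 was the lowest among the members tested (adjusted p = 6.85e-06), a 14.7-fold lower level, and control and combination do not overlap. Atp5f1, subunit b, fell by 1.91 ± 0.34 (adjusted p = 0.000194). Atp5o, the subunit that joins stalk and head, fell by 1.51 ± 0.30 (adjusted p = 0.000481). The log2 ratio of Atp5a1 to Atp5h within a library was 2.10, 1.59 and 1.12 in control and 6.51, 8.69 and 7.36 in the combination, and in minP1 and anti-PD-L1 it was 2.19 to 3.82 and 3.07 to 5.08.

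Subunit c, which forms the rotating ring in the membrane, is encoded by 3 nuclear genes that give the same mature protein. Atp5g3 had 575, 340 and 334 CPM in control and 76.8, 95.5 and 130 in the combination, without overlap, and fell by 2.02 ± 0.34 (adjusted p = 0.000115). Atp5g2 had 355, 296 and 305 CPM in control and 179, 340 and 226 in the combination, and its log2 fold change of -0.34 ± 0.25 did not pass (adjusted p = 0.299). Atp5g1 was below the filter and had 29 counts over the controls, 23 over minP1, 6 over anti-PD-L1 and 0 over the combination. Taking 3 counts over the group as the floor, its level in the combination was at least 4.18-fold lower than in control. The 95% counting interval of the ratio reached up to 0.314, which is a smaller fall. For anti-PD-L1 the ratio to control was 0.305 with a 95% counting interval of 0.104 to 0.748. Among the small membrane subunits, Atp5l (subunit g) rose by 0.60 ± 0.23 (adjusted p = 0.0484), a call lost in 11 of 22 alternatives with adjusted p from 0.0212 to 0.481. Atp5k, Atp5j2 and Atp5mpl had log2 fold changes of -0.24, 0.11 and -0.05, none of which passed (adjusted p = 0.526, 0.78 and 0.898).

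**Figure D5:**
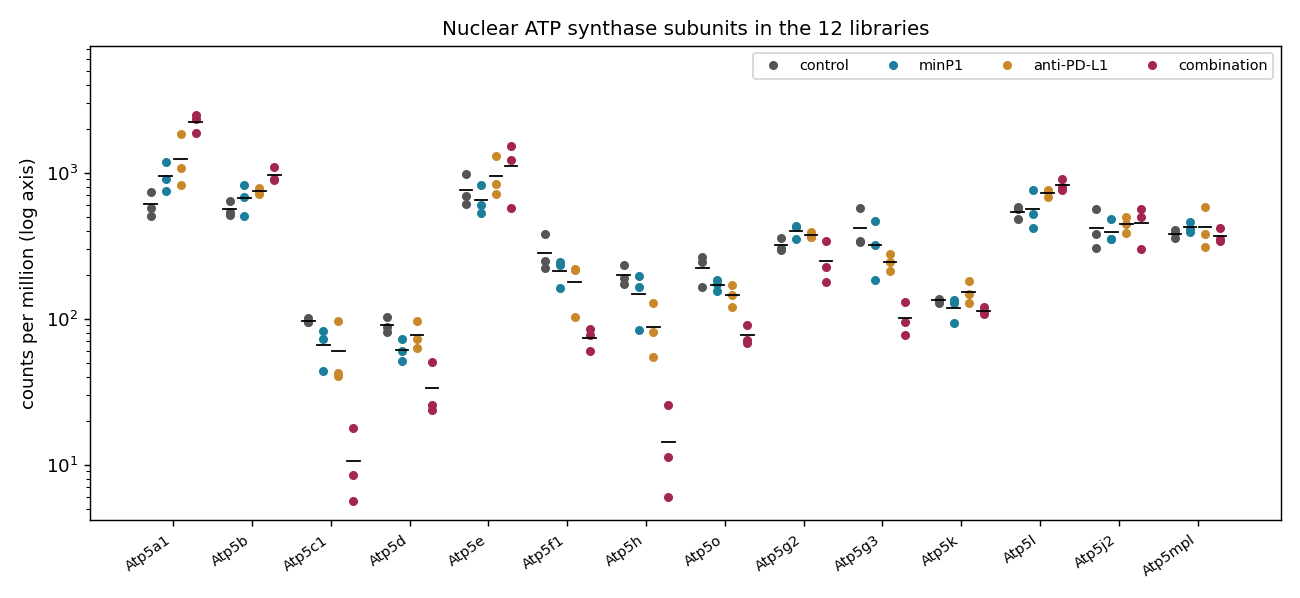
CPM (log axis) of the 14 tested nuclear ATP synthase subunits in the 12 libraries, coloured by group, with a bar at each group's mean. Atp5a1 and Atp5b rise while Atp5c1 and Atp5h drop by more than the spread between libraries in the combination.

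Nuclear complex IV subunits fell in 8 of 11 cases and rose in 1, with a median log2 fold change of -1.61. These are 72.7% and 9.09%, beside 18.3% and 16.5% of all genes tested. Cox4i1, the most counted of them and a regulatory subunit, had 1494, 753 and 871 CPM in control and 410, 501 and 508 in the combination, and fell by 1.13 ± 0.27 (adjusted p = 0.00239). Cox6c, a small membrane subunit, had 243, 208 and 146 CPM in control, 113, 43.9 and 155 in minP1, 36.3, 104 and 62.0 in anti-PD-L1, and 42.7, 0 and 22.6 in the combination. The combination lay below control without overlap but overlapped anti-PD-L1, and the log2 fold change against control was -3.30 ± 0.57 (adjusted p = 0.000142). Cox6b1, which lies at the contact of the enzyme dimer, had 341, 304 and 282 CPM in control and 85.4, 95.5 and 45.1 in the combination (log2 fold change -2.05 ± 0.29, adjusted p = 1.99e-05).

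Cox5a, a subunit on the matrix side, was the one that rose: 538, 340 and 347 CPM in control and 785, 585 and 559 in the combination, a log2 fold change of 0.65 ± 0.25 (adjusted p = 0.0446). The groups do not overlap, yet 10 of 22 alternatives end the call, with adjusted p from 0.00762 to 0.558. Its partner Cox5b had a log2 fold change of -0.53 ± 0.31 (adjusted p = 0.184). Cox8a, Cox7c, Cox7a2 and Ndufa4, the last of which was first named as a complex I subunit, fell by 1.74, 1.61, 1.81 and 1.86. When the Bc1 level was added to the fit, Cox7a2 had a log2 fold change of -1.17 that did not pass (adjusted p = 0.0655). Cox6a1 fell by 0.89 ± 0.28 (adjusted p = 0.0161), a call lost without combination replicate 1 or 2 (adjusted p = 0.0783 and 0.103), with thinning to equal depth (adjusted p = 0.0869) and with the Bc1 term (log2 fold change -0.48, adjusted p = 0.329). Of the paired isoforms, those typical of muscle or lung, Cox6a2 and Cox4i2, had 3 and 2 counts over all 12 libraries, and the germ-cell form Cox6b2 had 1. Ndufa4l2, induced by low oxygen, had 2. Cox7a2l, which joins complexes III and IV into supercomplexes, had 544, 446 and 497 CPM in control and 751, 656 and 536 in the combination, and its log2 fold change of 0.38 ± 0.22 did not pass (adjusted p = 0.194).

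Complex I, the NADH dehydrogenase, has the most nuclear subunits. Of 33 tested 2 rose, 10 fell and 21 were not called, and the median log2 fold change was -0.68. The shares that rose and fell were 6.06% and 30.3%, beside 16.5% and 18.3% of all genes tested. Ndufa7 had 152, 98.7 and 98.5 CPM in control and 25.6, 0 and 33.9 in the combination (log2 fold change -2.55 ± 0.53, adjusted p = 0.000775). Ndufab1, the acyl carrier protein that also serves mitochondrial fatty acid synthesis, had 180, 143 and 128 CPM in control and 42.7, 11.9 and 56.4 in the combination, and fell by 2.01 ± 0.39 (adjusted p = 0.000485). Ndufa5, a subunit of the peripheral arm, had 223, 186.5 and 190 CPM in control and 51.2, 47.7 and 50.8 in the combination, and fell by 2.00 ± 0.36 (adjusted p = 0.000216). For all 3 genes the groups do not overlap. Ndufa8 fell by 1.59 ± 0.38 (adjusted p = 0.00242).

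Ndufb3 and Ndufb5, both of the membrane arm, were the complex I subunits that rose. Ndufb3 had 226, 132 and 143 CPM in control and 299, 382 and 237 in the combination (log2 fold change 0.87 ± 0.28, adjusted p = 0.0182). Ndufb5 had 269, 187 and 137 CPM in control and 367, 376 and 305 in the combination (log2 fold change 0.82 ± 0.28, adjusted p = 0.0238). Both calls end without control replicate 2, control replicate 3 or combination replicate 2, with adjusted p from 0.0606 to 0.141. They also end with no filter on low counts (adjusted p = 0.0582 and 0.0681) and when the Bc1 level was added to the fit (adjusted p = 0.369 and 0.524). Ndufa2, the most counted nuclear complex I subunit, had 678, 636 and 571 CPM in control and 666, 680 and 474 in the combination, which overlap (log2 fold change -0.05 ± 0.23, adjusted p = 0.874). The core subunits Ndufs1, Ndufs3, Ndufs7 and Ndufs8 had log2 fold changes from -0.97 to -0.46 that did not pass. Of the 5 assembly factors among the members only Ndufaf7 was tested, with a log2 fold change of 0.48 ± 0.41 (adjusted p = 0.388).

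Complex II, which oxidises succinate and is also part of the citrate cycle, had 2 subunits tested, and both fell in the combination. Sdhd, a membrane anchor, had 203, 146 and 148 CPM in control and 34.2, 83.6 and 56.4 in the combination, and fell by 1.46 ± 0.34 (adjusted p = 0.00201). Sdha, the flavoprotein that binds succinate, had 109, 110 and 91.8 CPM in control and 17.1, 47.7 and 67.7 in the combination. Sdha fell by 1.13 ± 0.38 (adjusted p = 0.0228), and the call ends without control replicate 1 or 2 or combination replicate 1 or 2, with adjusted p from 0.0503 to 0.144, with DESeq2 (adjusted p = 0.0713) and when the Bc1 level was added (adjusted p = 0.15). Sdhb and Sdhc were below the filter, with 36 and 40 counts over the controls and 3 each over the combination. Their ratios of scaled levels were 0.193 and 0.174, with 95% counting intervals of 0.038 to 0.611 and 0.0344 to 0.545.

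In complex III, 3 of 9 nuclear subunits fell and none rose, where 18.3% of all genes tested were lower and 16.5% higher. Uqcrh, the hinge protein and most counted subunit, had 784, 519 and 513 CPM in control, 493, 439 and 510 in minP1, 302, 474.5 and 479 in anti-PD-L1, and 137, 179 and 181 in the combination. The combination was below all other libraries, and Uqcrh fell by 1.85 ± 0.27 (adjusted p = 2.25e-05). Uqcrb and Uqcrq, small subunits next to the ubiquinone site, fell by 1.97 ± 0.47 and 1.63 ± 0.40 (adjusted p = 0.00239 and 0.00323). The core proteins Uqcrc1 and Uqcrc2 and the iron-sulphur protein Uqcrfs1 had log2 fold changes of 0.57, -0.58 and -0.64, none of which passed (adjusted p = 0.348, 0.326 and 0.243). Cycs, the cytochrome c that carries electrons from complex III to complex IV, had 292, 274 and 244 CPM in control and 188, 251 and 214 in the combination, and did not pass (log2 fold change -0.30 ± 0.26, adjusted p = 0.384). Over all nuclear members, the combination lay below control without overlap for 36 and above it for 6, where 25.5% and 20.4% of all genes tested did so. Of the other untested members, Ndufv1 had 35 counts over the controls and 3 over the combination (ratio 0.198, 95% counting interval 0.039 to 0.629), and Ndufa10 had 49 and 6.

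Against control, minP1 alone had no member called by edgeR, and DESeq2 called 0 as well, as did edgeR with both libraries that stand apart left out. Of all genes tested 0% passed in edgeR, and 7.04% had an unadjusted p under 0.05, as did 4 mitochondrial and 4 nuclear members. The lowest adjusted p of a mitochondrial member was 0.486 and that of a nuclear member 0.649. Of the mitochondrial members 12 of 13 had negative log2 fold changes, with a median of -0.38, where 50.4% of all genes were negative, and MT-Co3 had 0.56 ± 0.36 (adjusted p = 0.812). Without minP1 replicate 2, the value for MT-Co3 was -0.19 (adjusted p = 0.998).

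In anti-PD-L1 against control 1 mitochondrial member was lower and no nuclear member was called, where 0.551% of all genes tested were higher, 0.57% lower and 1.12% called in either direction. At an unadjusted p under 0.05 there were 13 nuclear members, and DESeq2 called 2 nuclear members. The shares of all genes for these counts are not given here, so neither is read as a result about the members. MT-Nd1 fell by 1.41 ± 0.33 (adjusted p = 0.0357). This call ends without control replicate 2 or 3 or anti-PD-L1 replicate 1 or 2, with adjusted p of 0.128, 0.0555, 0.168 and 0.131. MT-Co3 missed the threshold with a log2 fold change of 1.43 ± 0.37 (adjusted p = 0.0509), as did MT-Rnr1 with -0.91 ± 0.23 (adjusted p = 0.0509), Atp5a1 with 1.03 ± 0.27 and Cox6b1 with -0.95 ± 0.25 (adjusted p = 0.0548 for both). MT-Co3 passed in 10 of 22 alternatives and Atp5a1 in 7. With both libraries that stand apart left out, no mitochondrial or nuclear member passed in this comparison.

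Against anti-PD-L1, the combination was lower for 6 of 13 mitochondrial and 11 of 72 nuclear members and higher for none, where 3.95% of all genes were lower and 2.99% higher. MT-Atp6 (log2 fold change -1.99 ± 0.35, adjusted p = 0.00277), MT-Co2 (-1.53 ± 0.26, adjusted p = 0.00209) and MT-Nd4 (-1.44 ± 0.29, adjusted p = 0.00535) kept the call in all 22 alternatives. Of nuclear members, Atp5h fell by 2.75 ± 0.56 (adjusted p = 0.0053) and Uqcrh by 1.34 ± 0.27 (adjusted p = 0.00535), each in all alternatives run. MT-Co3 had a log2 fold change of 0.61 ± 0.36 and Atp5a1 of 0.84 ± 0.27, which did not pass (adjusted p = 0.311 and 0.0547). Atp5a1 passed in 10 of 22 alternatives, with log2 fold changes from 0.61 to 1.26 and adjusted p from 0.00179 to 0.283 over all of them, and MT-Co3 in 1, with both libraries that stand apart left out (0.93, adjusted p = 0.0388). The nuclear count was 4 without anti-PD-L1 replicate 2, 2 without its replicate 3, 2 without combination replicate 1 and 5 without combination replicate 2. The mitochondrial count was 3 without anti-PD-L1 replicate 3. With both libraries left out, 1 mitochondrial member was higher and 6 lower, and 1 nuclear member was higher and 15 lower.

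Against minP1, 1 mitochondrial member was higher and 6 lower in the combination, and 1 nuclear member was higher and 22 lower, where 9.19% of all genes were higher and 10.8% lower. The higher ones were again MT-Co3 (log2 fold change 1.49 ± 0.37, adjusted p = 0.00645) and Atp5a1 (1.23 ± 0.27, adjusted p = 0.0026). Among the lower ones, Atp5h fell by 3.45 ± 0.52 (adjusted p = 0.000102), MT-Nd1 by 2.95 ± 0.47 (adjusted p = 0.000155), MT-Atp6 by 2.32 ± 0.34 (adjusted p = 7.98e-05) and Cox6b1 by 1.78 ± 0.30 (adjusted p = 0.000276). The nuclear count was 15 without minP1 replicate 1, 10 without its replicate 3, 13 without combination replicate 1 and 11 without combination replicate 2. With both libraries that stand apart left out, the mitochondrial counts stayed at 1 higher and 6 lower, and 5 nuclear members were higher and 22 lower. These comparisons and those with control share the combination libraries, so their values stand side by side and are not independent.

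The interaction asks whether adding minP1 to the antibody changed a level differently from giving minP1 alone. No member passed in edgeR or in DESeq2. Of all genes 0% passed in edgeR and 11% had an unadjusted p under 0.05, as did 5 mitochondrial and 9 nuclear members. The lowest adjusted p among the members were those of MT-Atp6 (interaction of -1.62 ± 0.44 on the log2 scale, adjusted p = 0.208), MT-Co2 (-1.28 ± 0.35, adjusted p = 0.209) and Atp5h (-2.33 ± 0.66, adjusted p = 0.221). For MT-Co3 and Atp5a1 the interaction was 0.06 ± 0.51 and 0.20 ± 0.38 (adjusted p = 0.98 and 0.891). With both libraries that stand apart left out, the interaction passed for MT-Atp6 (-1.99, adjusted p = 0.0126) and Atp5h (-2.78, adjusted p = 0.0177), and when the Bc1 level was added, for MT-Co2 (-1.24, adjusted p = 0.0387). A difference between the additive and the observed effect was therefore not shown with all libraries, and a p above the threshold does not show that the effects were additive.

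Lists of genes that serve the respiratory chain without being part of it are given for the combination against control, where 16.5% of all genes tested were higher and 18.3% lower, and a share near these is not read as a result about a list. Of 10 tested assembly factors outside the names above, 2 rose and 2 fell, among them Coa5 (log2 fold change 1.30 ± 0.32), which helps build complex IV, and Uqcc2 (-2.28 ± 0.57), which helps build complex III. Of 7 tested genes of mitochondrial DNA expression 3 fell and none rose: Hsd17b10, a part of mitochondrial RNase P, by 2.08 ± 0.61, Grsf1, an RNA-granule protein, by 1.42 ± 0.45, and Slirp, which stabilises mitochondrial messages, by 1.41 ± 0.43. Tfam, which packages and helps transcribe mitochondrial DNA, had a log2 fold change of -0.47 ± 0.70 (adjusted p = 0.629). Import genes rose in 1 of 17 cases and fell in 5, including Tomm7 (-3.11 ± 0.64) and Timm13 (-1.45 ± 0.28). Carriers and channels rose in 1 of 8 cases and fell in 3, including the phosphate carrier Slc25a3 (-1.61 ± 0.35) and Vdac3 (-2.28 ± 0.70).

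Of 15 tested genes of the citrate cycle and pyruvate dehydrogenase 2 rose and 3 fell. Pdha1, a pyruvate dehydrogenase subunit, rose by 1.03 ± 0.27 and the malate dehydrogenase Mdh2 by 0.88 ± 0.25, while the succinyl-CoA ligase subunit Suclg2 fell by 2.54 ± 0.65. Nuclear regulators of respiration rose in 3 of 7 cases and fell in none. The nuclear receptor Esrra had 31.5, 36.6 and 26.9 CPM in control and 137, 173 and 96 in the combination, and rose by 2.10 ± 0.39 (adjusted p = 0.000276). Nfe2l2, a regulator of the antioxidant response, rose by 1.46 ± 0.26 (adjusted p = 0.000178), and Tfe3 by 1.16 ± 0.42 (adjusted p = 0.0365). The median log2 fold changes of these lists ran from -0.94 for mitochondrial DNA expression to 0.79 for the regulators, beside -0.06 for all genes.

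Summed markers of several cell types differed between control and combination. Summed macrophage markers, 9 of 9 matched, ran from 1002 to 1174 CPM in control, 783 to 1199 in minP1, 964 to 1584 in anti-PD-L1 and 2047 to 4371 in the combination. Summed neutrophil markers, 8 of 8 matched, ran from 325 to 386 in control, 248 to 308 in minP1, 238 to 319 in anti-PD-L1 and 609 to 700 in the combination. These sums hide opposite directions among the 5 neutrophil markers tested. In anti-PD-L1 against control 4 had positive log2 fold changes, none of them called, and 1 was called lower (median 1.15). In minP1 3 were positive and 2 negative, none called. In the combination 4 were called higher and 1 lower. Inflammatory monocyte markers, 5 of 6 matched, were at 976 to 1037 in control and 1540 to 1810 in the combination. In minP1 they were at 1088 to 1386 and in anti-PD-L1 at 1330 to 1701. T cell markers, 7 of 10 matched, were at 32.9 to 56 in control and 152 to 248 in the combination. In minP1 they were at 71.5 to 106 and in anti-PD-L1 at 81.6 to 151. For both lists, each agent alone also lay above all controls. Of 6 tested cell cycle markers 2 fell, Mki67 by 2.90 and Top2a by 1.37, none rose, and the other 4 were not called. Their log2 fold changes ran from -2.90 to 0.72, and the summed list was at 1581 to 1715 in control and 1196 to 1307 in the combination. B cell markers, 3 of 5 matched, were at 6.72 to 14.3 in control and 41.8 to 45.1 in the combination. In minP1 they were at 16.5 to 65.9 and in anti-PD-L1 at 17.2 to 60.4, also above all controls. They had 10 counts in all over the controls and 20 over the combination. Adipocyte markers, 1 of 4 matched, were at 0 to 31.5 in control and 11.3 to 76.8 in the combination. Erythroid genes were at 1414 to 2801 in control and 863 to 2274 in the combination, fibroblast genes at 907 to 1276 and 717 to 1212. Epithelial and carcinoma markers, 5 of 6 matched, gave 13 counts in all over the controls and 11 over the combination, endothelial markers 23 and 20, skeletal muscle markers 12 and 7, and no matched marker was at 0 in all libraries. The part of the cell mixture in the changes of the members was not tested.

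Patterns over the 12 libraries are given for members named above, whose group differences these correlations share. The Pearson correlation of log2 CPM is given as a description over libraries that share groups and depth. MT-Co3 was most like Cox7a2l (r = 0.931), Atp5a1 (0.910) and Atp5l (0.901) among members, and Rps2 (0.979), Cnot3 (0.978) and Rpl32 (0.974) among all genes. Atp5h was most like MT-Atp6 (0.963) and Uqcrb (0.932) among members, and Lars2 (0.985) among all genes. MT-Nd1 was most like MT-Atp6 (0.948) and Uqcrh (0.938) among members, and Rpl26 (0.985) among all genes. Atp5a1 was least like MT-Atp6 (-0.923).

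Promoter sequences of the nuclear members were read because subunits of 1 complex went opposite ways. The windows run from 250 bases before to 50 after each start in RefSeq, build GRCm38.p6, and 67 of 82 nuclear members matched. NRF1 and the ETS factor GABP are known activators of respiratory chain genes. The NRF1 motif was searched as GCGCA, then any base, then GCGC, and all motifs on both strands. It lay in 26.8% of 71 windows of members and in 1512 of all 32851 windows. The ETS motif CCGGAAG lay in 22.5% and 8.86%, and the YY1 motif AAGATGGCG in 9.86% and 1.4%. By gene, the NRF1 motif lay before 9 of 22 members that fell, 8 of 32 that were not called and 0 of 5 that rose. The ETS motif lay before 6, 7 and 1 of them, and the YY1 motif before 1, 5 and 0. These are matches of letters in a fixed window and no test was made on them.

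The windows of Atp5h, which fell 14.7-fold, of Atp5c1, which fell 8.62-fold, and of Atp5b, which rose 1.71-fold, are shown with motif matches in capitals. Atp5h holds the NRF1 motif and, reversed, the ETS motif. The second of the Atp5c1 windows holds the NRF1 motif near its start site, and the Atp5b window holds neither. Other members went the other way: Ndufa7 and Atp5d fell and hold neither motif, and Atp5l rose and holds the ETS motif.
Atp5h, chr11:115419870-115420169, minus strand: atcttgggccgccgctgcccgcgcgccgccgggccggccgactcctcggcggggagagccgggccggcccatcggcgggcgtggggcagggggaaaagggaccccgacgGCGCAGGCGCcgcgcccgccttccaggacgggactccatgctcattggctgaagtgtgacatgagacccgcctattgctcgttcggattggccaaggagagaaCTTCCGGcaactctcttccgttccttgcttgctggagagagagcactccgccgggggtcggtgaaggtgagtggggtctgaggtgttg
Atp5c1, chr2:10080383-10080682, minus strand: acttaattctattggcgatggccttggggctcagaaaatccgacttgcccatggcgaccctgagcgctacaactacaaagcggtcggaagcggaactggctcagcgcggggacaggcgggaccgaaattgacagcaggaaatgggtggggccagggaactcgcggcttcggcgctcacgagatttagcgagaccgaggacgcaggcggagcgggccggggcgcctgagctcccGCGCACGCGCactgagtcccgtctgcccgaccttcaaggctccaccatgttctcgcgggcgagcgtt
Atp5b, chr10:128083057-128083356, plus strand: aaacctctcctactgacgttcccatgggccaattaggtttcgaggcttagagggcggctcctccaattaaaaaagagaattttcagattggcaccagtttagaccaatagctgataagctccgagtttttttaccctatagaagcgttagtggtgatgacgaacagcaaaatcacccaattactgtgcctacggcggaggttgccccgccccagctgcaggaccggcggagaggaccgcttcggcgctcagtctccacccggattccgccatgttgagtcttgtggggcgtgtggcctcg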

How the data were processed

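Each of the 12 libraries was a table of whole-number counts per gene symbol, as the authors deposited it. The submitters' processing notes name Bowtie2 2.2.5, R 3.6.1, DESeq2 and mm10, without their roles. Which program made the counts, with which annotation and strand setting, and how it handled reads with several matches is not given in the sources used here, so overlapping genes and near-identical copies are uncertain. From these counts, filterByExpr kept 5443 of 19921 genes, with 89.8% to 93.6% of each library. edgeR 4.0.16 (R 4.3.3) scaled them by TMM and tested them (glmQLFit, glmQLFTest) in 1 fit of all 12 samples, with Benjamini-Hochberg adjustment over all genes in each of 6 comparisons. The estimated common dispersion of 0.0506 equals a coefficient of variation of 22.5% between libraries of a group. With 1 library per mouse, it holds differences of preparation and amplification as well as those between mice. Reads carry no molecular identifiers, so counting intervals and floors cover counting error only. The test was run on simulated counts first.

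The members, gene lists and tests were chosen with earlier results of these data known. Named were all mitochondrial members, the most counted nuclear member of each complex, up to 4 called members per complex and direction with the smallest p, isoforms of 1 subunit, and up to 3 genes of each other list. Named after their values were seen were Atp5d, Atp5e, Atp5o, Atp5k, Atp5j2, Atp5mpl, Cox5b, Uqcrc1, Uqcrc2, Uqcrfs1, Ndufs1, Ndufs3, Ndufs7, Ndufs8, Ndufv1, Ndufa10, Sdhb, Sdhc, Tfam, Mki67, Top2a and the isoforms under 50 counts. Alternatives were other scalings, DESeq2 1.42.0, no filter, only the groups compared, a replicate block, the Bc1 level as a term, thinning to 133917 counts, and leaving out libraries. Mitochondrial coordinates are from the GENCODE annotation of GRCm38. A member is not reported here.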

Additional observations from a re-analysis of the deposited data

How the results depend on the processing

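Directions and calls of the members were recomputed in 22 alternatives per comparison (21 for the interaction), 12 of which leave out 1 library. Counts of called members within 1.5 times the reported ones made up most of the results. In anti-PD-L1 against control, the nuclear count of 0 became 1 with scaling to total counts, 2 with DESeq2 and with only the groups compared, 3 with no filter and 5 with the replicate block, and 0 to 5 without single libraries. The mitochondrial count of 1 became 2 with DESeq2's size factors, with DESeq2, with no filter and with only the groups compared, 3 with scaling to total counts and with the replicate block, 0 with the Bc1 covariate and with both libraries that stand apart left out, and 0 to 3 without single libraries. In combination against control, the nuclear count of 35 became 21 with the Bc1 covariate and was 26 to 37 without single libraries. Against minP1 the count of 23 became 13 with that covariate and was 10 to 27 without single libraries, and against anti-PD-L1 the counts of 11 and 6 were 2 to 14 and 3 to 7. The interaction count of 0 became 1 nuclear and 1 mitochondrial without the 2 libraries and 1 mitochondrial with the covariate. The cause of each was not tested.

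The log2 ratio of mitochondrial to nuclear counts without MT-Rnr2 was -1.30 for control, -1.36 for minP1, -0.91 for anti-PD-L1 and -0.72 for the combination. Reversed were MT-Co3 in minP1 against control without replicate 2 (-0.19, where leaving out single libraries gave -0.19 to 0.83) and without both libraries (-0.20), Ndufa2 in the combination without control replicate 1 (0.04) or combination replicate 3 (0.11, in a range of -0.13 to 0.11), and Ndufaf7 with the covariate (-0.36), none of them called. Same-numbered libraries correlated above 0.1 in 9 of 18 pairs (-0.12 to 0.20), and pairs of other numbers ran from -0.278 to 0.283. Of 12 libraries 7 correlated best with their own number. These values do not settle whether the numbers pair the samples, and the reported fits do not pair them. Beyond the counts above, the replicate block moved none by over 1.5 times. The depth of 133917 to 196109 counts in the combination limits members near the filter, 11 of which were not tested.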
